A study of Mus musculus with 11 samples.

Results

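The IL-12 and IL-18 receptor genes are 4 genes that encode the paired chains of both receptors: Il18r1 and Il18rap for IL-18, and Il12rb1 and Il12rb2 for IL-12. They were chosen by symbol as the genes of these chains listed in every deposited table, and all 4 of them were found and tested, of 53801 gene identifiers in the Bcl11b count table and 55471 in the Tcf7 count table. The libraries hold RNA of mouse thymocytes sorted as CD24-negative and TCRβ-negative. The Bcl11b table is of postnatal day 0 and holds 2 libraries each of Bcl11b D/N440K, Bcl11b +/N440K and Bcl11b +/+. The Tcf7 table is of postnatal day 7 and holds 3 libraries with the label Tcf7 F/F:Vav1-Cre and 2 of Tcf7 +/+. N440K is an allele that encodes a Bcl11b protein with a changed residue, and the question named in the series title is its interference with Bcl11a. The labels do not define D, so the D/N440K mice carry N440K beside an allele of unstated kind. F marks an allele of Tcf7 flanked by loxP sites, and Vav1 drives Cre across blood cells, so the deletion is not limited to one lymphocyte lineage. Strain, sex and whether replicates came from separate animals are not given, so p-values measure the spread between these samples, which may be technical.

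IL-18 binds Il18r1, and Il18rap then joins as the accessory chain that completes the signalling receptor. Both chains carry an intracellular domain that recruits MYD88, IRAK kinases and TRAF6, and the signal ends on NF-kB. Il12rb1 is the chain shared by the receptors of IL-12 and IL-23 and binds the kinase TYK2, while Il12rb2 is the chain particular to IL-12, which binds JAK2 and the factor STAT4. IL-12 and IL-18 act together on NK cells, innate lymphoid cells and T cells, where they induce interferon gamma. In the thymus both receptors are known from innate-like lymphocytes more than from the bulk of developing T cells.

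Total counts per library were 999381 to 1246272 for the Bcl11b genotypes and 1273997 to 1842717 for the Tcf7 genotypes, and levels are normalised read counts (CPM). The counts of the targeted genes were set beside the labels. Bcl11b averaged 177.6 ± 36.8 CPM in D/N440K, 205.1 ± 28.1 CPM in +/N440K and 573.5 ± 96 CPM in +/+ (SD, n = 2 each). Tcf7 averaged 733.1 ± 100 CPM in libraries that carry the label Tcf7 F/F:Vav1-Cre (SD, n = 3) and 572.8 ± 29.2 CPM in Tcf7 +/+ (SD, n = 2). It was 1.28-fold higher with that label than in Tcf7 +/+ (edgeR adjusted p = 0.0497). A count over all exons of Bcl11b does not show a changed residue, and D/N440K and +/N440K differed in it by less than the sum of their SDs. A count over all exons of Tcf7 does not check a floxed deletion, and the directions below rest on the labels. Cd24a, the gene of the CD24 antigen used in the sort, was at 0 to 12.4 CPM in every library, but it differed between genotypes. It averaged 2.22 CPM in D/N440K, 1.22 CPM in +/N440K and 11.34 CPM in Bcl11b +/+. In Tcf7 F/F:Vav1-Cre it averaged 2.115 CPM, and in Tcf7 +/+ 10.14 CPM. The edgeR test called it lower in each of these genotypes than in its +/+ group. Ptprc, the pan-leukocyte gene CD45, was at 879 CPM or more in every library. Trbc1 and Trbc2, the TCRβ constant genes, were transcribed in all groups at 46.9 to 210.7 CPM. The Tcf7 +/+ pair differed more than any other replicate pair, with a chi-square per degree of freedom of 4.94 against 1.14 to 2.16 elsewhere. Ddx3y, a Y-linked gene, had 0 counts in replicates 1 and 3 labelled Tcf7 F/F:Vav1-Cre and at least 144 in the other Tcf7 libraries. Every library of the Bcl11b table held reads of both Ddx3y and Xist.

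The IL-18 receptor genes lie side by side on chromosome 1 of GRCm38, both on the plus strand. By the GENCODE M21 annotation, Il18r1 (ENSMUSG00000026070) runs from base 40465552 to 40500854, and Il18rap (ENSMUSG00000026068) starts 14507 bases further on and runs from 40515362 to 40551705. Il12rb1 (ENSMUSG00000000791) lies on chromosome 8 from 70808449 to 70821424, on the plus strand. Il12rb2 (ENSMUSG00000018341) lies on chromosome 6 from 67291318 to 67376188, on the minus strand. The exons of Il18r1, Il18rap, Il12rb1 and Il12rb2 cover 4817, 6752, 4105 and 3794 bases. The first 3 of these genes overlap no other annotated gene. Of the Il12rb2 exon bases 1519, or 40%, are also exon bases of Serbp1 on the opposite strand. The strand used in counting is not stated, so Il12rb2 and Serbp1 reads there cannot be told apart.

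The promoter windows of the IL-18 receptor pair are shown because their transcripts moved together with N440K, and that of Il12rb2 because it moved in opposite directions in the Bcl11b and Tcf7 tables. Each is the RefSeq window of 300 bases in GRCm38.p6, from 250 bases before the start site, read 5′ to 3′ on the strand of the gene. The Il18r1 window is chr1:40465302-40465601 on the plus strand, the Il18rap window is chr1:40515112-40515411 on the plus strand, and the Il12rb2 window is chr6:67376139-67376438 on the minus strand. Il12rb1 is named only. Capitals mark matches to 5 short motifs searched on both strands: CTTTGA (TCF/LEF core), TGTGGT (RUNX core), GGTGTG (T-box core), TGACCA (BCL11A core) and TTCNNNGAA (STAT).
Il18r1: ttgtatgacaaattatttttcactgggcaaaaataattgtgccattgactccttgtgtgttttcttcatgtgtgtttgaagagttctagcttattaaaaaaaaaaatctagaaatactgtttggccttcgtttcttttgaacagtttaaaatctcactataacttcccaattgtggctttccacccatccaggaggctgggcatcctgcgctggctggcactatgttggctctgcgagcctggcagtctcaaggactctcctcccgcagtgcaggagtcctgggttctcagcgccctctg
Il18rap: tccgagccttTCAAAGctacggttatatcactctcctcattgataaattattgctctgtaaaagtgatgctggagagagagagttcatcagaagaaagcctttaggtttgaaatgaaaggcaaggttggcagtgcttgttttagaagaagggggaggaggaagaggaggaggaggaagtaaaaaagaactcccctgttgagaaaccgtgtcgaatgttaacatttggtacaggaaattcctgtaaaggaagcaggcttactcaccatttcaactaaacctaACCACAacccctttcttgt
Il12rb2: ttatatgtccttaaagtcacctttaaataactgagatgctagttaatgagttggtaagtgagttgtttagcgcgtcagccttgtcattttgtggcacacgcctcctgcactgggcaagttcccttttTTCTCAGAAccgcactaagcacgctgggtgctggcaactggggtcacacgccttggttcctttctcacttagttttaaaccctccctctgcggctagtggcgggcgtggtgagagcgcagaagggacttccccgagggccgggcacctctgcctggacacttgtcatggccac
RefSeq gives Il18r1 3 windows, and the one shown, the first of them, held none of these letters. The next, with its start site at 40465621, held GGTGTG 12 bases before that site and TGTGGT 21 bases after it, both on the strand of the gene. The last, with its start site at 40466006, held TTCNNNGAA 219 and 152 bases before that site on the strand of the gene. The Il18rap window held CTTTGA on the opposite strand, 240 bases before the start site, which reads as its reverse complement above, and TGTGGT on the opposite strand, 31 bases after it. The Il12rb2 window held TTCNNNGAA on the strand of the gene, 123 bases before the start site. No match overlapped another. Of 32851 such windows over 27025 genes, 16% held CTTTGA, 16.8% TGTGGT, 19% GGTGTG, 13.6% TGACCA and 8.3% TTCNNNGAA. The motifs are therefore common, and a match is a description of the letters alone.

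Both IL-18 receptor chains were higher in each N440K genotype than in Bcl11b +/+. Il18r1, the ligand-binding chain, was at 489.0 and 439.7 CPM in D/N440K, 425.2 and 436.3 CPM in +/N440K, and 248.6 and 226.7 CPM in +/+. All 4 N440K libraries lay above both +/+ libraries, and the D/N440K libraries lay just above those of +/N440K. Il18rap, the accessory chain, was at 390.5 and 387.8 CPM in D/N440K, 315.8 and 337.6 CPM in +/N440K, and 152.4 and 181.8 CPM in +/+. It showed the same order of groups with no overlap between any pair of them. With 2 libraries against 2, an exact two-sided permutation test cannot give p under 0.333 even without overlap. The share of all tested genes without overlap was not computed, here or for the other genes below.

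In D/N440K against +/+, Il18r1 rose 1.97-fold (log2 fold change 0.98 ± 0.0919 SE, edgeR adjusted p = 1.043e-10) and Il18rap rose 2.31-fold (1.21 ± 0.101, edgeR adjusted p = 4.764e-12). In +/N440K against +/+, Il18r1 rose 1.82-fold (0.86 ± 0.0924, edgeR adjusted p = 4.613e-09) and Il18rap rose 1.94-fold (0.95 ± 0.104, edgeR adjusted p = 6.076e-09). Both comparisons use the same +/+ libraries. Each call of this pair was kept when any 1 library was left out.

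Of the IL-12 receptor chains, Il12rb2 was higher in both N440K genotypes, while Il12rb1 did not pass the test in either. Il12rb2, the chain that binds STAT4, was at 88.21 and 85.50 CPM in D/N440K, 81.61 and 52.31 CPM in +/N440K, and 37.85 and 43.17 CPM in +/+. The N440K groups did not overlap +/+, but the +/N440K libraries lay far apart, 1 near the D/N440K level and 1 near +/+. Il12rb1, the chain shared with the IL-23 receptor, was at 207.3 and 221.9 CPM in D/N440K, 258.7 and 255.6 CPM in +/N440K, and 284.4 and 243.3 CPM in +/+. Both D/N440K libraries lay below both +/+ libraries, and those of +/N440K fell between the +/+ values.

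Il12rb2 rose 2.13-fold in D/N440K against +/+ (log2 fold change 1.09 ± 0.196 SE, edgeR adjusted p = 6.227e-05). In +/N440K against +/+ it rose 1.67-fold (0.74 ± 0.204, edgeR adjusted p = 0.01297), on 153 reads over the +/N440K pair and 89 over the +/+ pair. That call ended without +/N440K replicate 1, where the log2 fold change was 0.36 with an edgeR adjusted p of 0.4775, and without +/+ replicate 1, where it was 0.66 with 0.09475. The Il12rb1 log2 fold change was -0.29 ± 0.104 in D/N440K against +/+ (edgeR adjusted p = 0.05931) and -0.03 ± 0.1 in +/N440K against +/+ (edgeR adjusted p = 0.9282). Without +/+ replicate 2 the D/N440K value was -0.41 and passed, with an edgeR adjusted p of 0.03071. Serbp1, which shares exon bases with Il12rb2, had a log2 fold change of -0.00 in D/N440K against +/+ (edgeR adjusted p = 0.9897) and 0.01 in +/N440K (edgeR adjusted p = 0.9734). It was at 486.5 and 457.0 CPM in D/N440K, 466.8 and 487.6 CPM in +/N440K, and 477.8 and 469.1 CPM in +/+.

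So 3 of the 4 receptor genes rose in D/N440K against +/+, where 6.1% of 10910 tested genes rose, 6.31% fell and 12.4% were called in either direction. In +/N440K against +/+ the same count, 3 of 4, rose, where 4.79% of tested genes rose, 5.3% fell and 10.1% were called. The median log2 fold change of the 4 genes was 1.03 in D/N440K and 0.80 in +/N440K, beside 0.001 and 0.002 over all tested genes. D/N440K and +/N440K differed by less, and 0 of the 4 genes passed the edgeR test between them, where 0.532% of tested genes were called, 0.284% higher and 0.247% lower. The log2 fold changes of D/N440K against +/N440K were 0.11 ± 0.0834 for Il18r1, 0.26 ± 0.0904 for Il18rap, -0.27 ± 0.104 for Il12rb1 and 0.35 ± 0.175 for Il12rb2. Their edgeR adjusted p values ran from 0.2942 to 0.8476. Unadjusted edgeR p values under 0.05 were found for 2 of the 4, beside 851 of 10910 tested genes (7.8%), and DESeq2 called none of them.

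**Figure D1:**
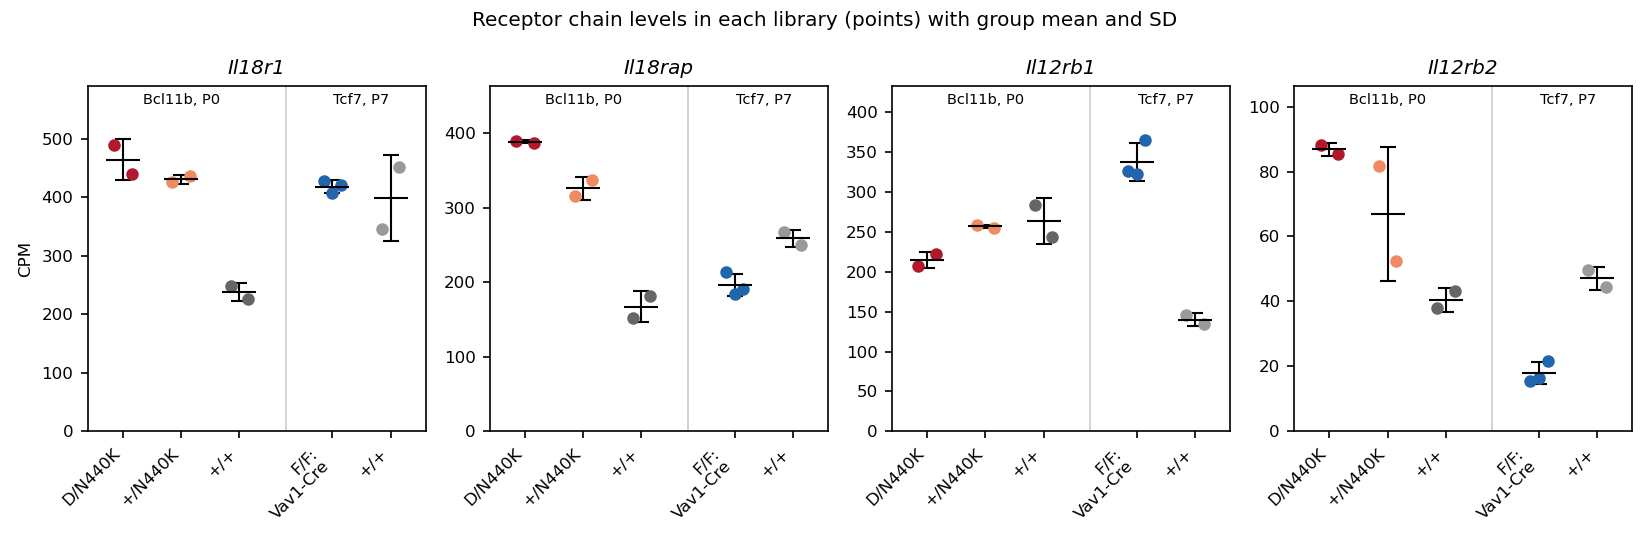
Normalised read counts (CPM, linear axis from 0) of the 4 receptor genes by group, with points for libraries, wide bars for group means and error bars for SD (n = 2, and 3 for Tcf7 F/F:Vav1-Cre). Il18r1, Il18rap and Il12rb2 lie higher in the N440K groups than in Bcl11b +/+, while in the Tcf7 table Il12rb1 lies higher and Il12rb2 lower in F/F:Vav1-Cre. The tables were normalised separately.

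At postnatal day 7 the IL-12 receptor chains moved in opposite directions. Il12rb1 was at 325.9, 322.6 and 365.0 CPM with the label Tcf7 F/F:Vav1-Cre, against 145.4 and 134.1 CPM in Tcf7 +/+. Il12rb2 was at 15.36, 16.39 and 21.70 CPM in Tcf7 F/F:Vav1-Cre, against 49.59 and 44.53 CPM in Tcf7 +/+. Neither gene's groups overlapped, and both differences were larger than the spread within groups. Il12rb1 rose 2.42-fold (log2 fold change 1.27 ± 0.134 SE, edgeR adjusted p = 2.063e-06), and Il12rb2 fell to a level 2.61-fold lower (-1.38 ± 0.234, edgeR adjusted p = 0.0003128). The Il12rb2 values rest on 87 reads over the Tcf7 F/F:Vav1-Cre libraries and 167 over the Tcf7 +/+ pair. Both calls were kept when any 1 library was left out. Serbp1 was at 255.5, 258.2 and 192.5 CPM in Tcf7 F/F:Vav1-Cre and 315.0 and 430.1 CPM in Tcf7 +/+, and it fell as well (log2 fold change -0.67 ± 0.156, edgeR adjusted p = 0.004767). Its part in the fall of Il12rb2 was not tested.

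The IL-18 receptor pair changed little in the same comparison. Il18rap was at 213.5, 184.8 and 191.4 CPM in Tcf7 F/F:Vav1-Cre, against 267.1 and 250.8 CPM in Tcf7 +/+, without overlap. Il18r1 was at 427.0, 406.3 and 420.6 CPM in Tcf7 F/F:Vav1-Cre, between the 346.0 and 450.9 CPM of the Tcf7 +/+ libraries. Il18rap fell to 0.757 of its Tcf7 +/+ level (log2 fold change -0.40 ± 0.129 SE, edgeR adjusted p = 0.03236), a call that ended when any 1 of the 3 Tcf7 F/F:Vav1-Cre libraries was left out (-0.46 to -0.35, edgeR adjusted p 0.06566 to 0.1772). Il18r1 had a log2 fold change of 0.07 ± 0.13 (edgeR adjusted p = 0.7537).

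Of the 4 genes 1 rose and 2 fell, where 23.2% of 12366 tested genes were called, 12% higher and 11.1% lower. With sex as a term in the edgeR model, set by the Y-linked reads, Il12rb1 stood at 1.21 and Il12rb2 at -1.52. Il18rap stood at -0.49 and Il18r1 at 0.03. The libraries without Y-linked reads all carried the label Tcf7 F/F:Vav1-Cre. The genotype effect in this model therefore rests on replicate 2 of that label against the Tcf7 +/+ pair. It is not a separate adjustment over all libraries. With the single library labelled Tcf7 F/F:Vav1-Cre that had Y-linked reads set against both Tcf7 +/+ libraries, Il12rb1 was at 1.22 and Il12rb2 at -1.50. No gene of the table was then called by edgeR, and 1484 had an unadjusted p under 0.05.

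**Figure D2:**
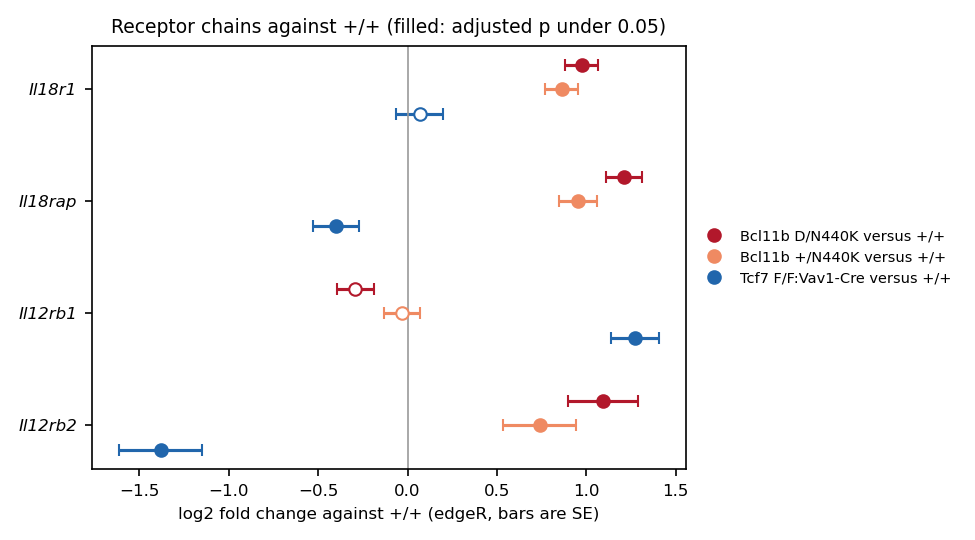
The edgeR log2 fold change of each receptor gene against the +/+ group of its own table, with SE bars, for D/N440K, +/N440K and Tcf7 F/F:Vav1-Cre. Filled points had an adjusted p under 0.05, and Il12rb2 lies on opposite sides of 0 in the Bcl11b and Tcf7 comparisons.

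The effects of N440K and of the Tcf7 genotype were then set against each other in one edgeR model over all 11 libraries, where each effect is taken against its own +/+ group. All 4 receptor genes differed between the effects, where 11.5% of 12249 tested genes were called for D/N440K (5.66% higher, 5.83% lower) and 11.4% for +/N440K (5.63% higher, 5.75% lower). For D/N440K minus Tcf7 F/F:Vav1-Cre, the difference of log2 fold changes was 2.47 ± 0.316 SE for Il12rb2 and 1.62 ± 0.167 for Il18rap, with edgeR adjusted p values of 3.06e-06 and 1.068e-07. It was 0.90 ± 0.162 for Il18r1 and -1.57 ± 0.169 for Il12rb1, with edgeR adjusted p values of 0.0003205 and 2.012e-07. For +/N440K minus Tcf7 F/F:Vav1-Cre the values were 2.11 ± 0.321 for Il12rb2, 1.37 ± 0.168 for Il18rap, 0.79 ± 0.163 for Il18r1 and -1.31 ± 0.167 for Il12rb1, with edgeR adjusted p values of 1.973e-06 to 0.001462. The spread in this model is pooled over both tables, although the Tcf7 table varied more when fitted apart (biological coefficient of variation 0.122 against 0.0445). Genotype is nested in age and table here, so the genotype and the age of the mice cannot be told apart as the source of a difference.

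Levels of different genes were compared per kilobase of exon. The length of Il12rb2 includes the 40% of its exon bases shared with Serbp1, and its level depends on how those were counted. Il18r1 was the highest of the 4 genes in every group except Bcl11b +/+, at 96.4 ± 7.23 CPM per kb in D/N440K, 89.4 ± 1.63 in +/N440K, 49.3 ± 3.22 in Bcl11b +/+, 86.8 ± 2.20 in Tcf7 F/F:Vav1-Cre and 82.7 ± 15.4 in Tcf7 +/+. In Bcl11b +/+ Il12rb1 was the highest, at 64.3 ± 7.09 CPM per kb. Il12rb2 was the lowest of the 4 in every group, from 22.9 ± 0.509 CPM per kb in D/N440K down to 4.70 ± 0.896 in Tcf7 F/F:Vav1-Cre. In Tcf7 F/F:Vav1-Cre, Il18r1 at 86.8 ± 2.20 and Il12rb1 at 82.3 ± 5.74 CPM per kb did not differ beyond their spread.

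Across the 5 groups, Il18r1 ran in the order D/N440K, +/N440K, Tcf7 F/F:Vav1-Cre, Tcf7 +/+ and Bcl11b +/+, and neighbours among the first 4 of these differed by less than the sum of their SDs. Il18rap ran in the order D/N440K, +/N440K, Tcf7 +/+, Tcf7 F/F:Vav1-Cre and Bcl11b +/+, and the last 2 differed by less than the sum of their SDs. Il12rb1 ran from Tcf7 F/F:Vav1-Cre through Bcl11b +/+, +/N440K and D/N440K to Tcf7 +/+, and Bcl11b +/+ and +/N440K overlapped. Il12rb2 ran from D/N440K through +/N440K, Tcf7 +/+ and Bcl11b +/+ to Tcf7 F/F:Vav1-Cre, and neighbours among the first 4 of these differed by less than the sum of their SDs. These orders span tables that were normalised separately and mice of different ages.

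The balance between the chains of one receptor moved most for IL-12. Its ratio uses all exon bases of Il12rb2, 40% of which are shared with Serbp1, so its size depends on how those were counted. Per kilobase, Il12rb1 exceeded Il12rb2 by 19.6, 18.2 and 15.5 times in the Tcf7 F/F:Vav1-Cre libraries and by 2.71 and 2.78 times in Tcf7 +/+. The ratio averaged 17.8 ± 2.08 (SD, n = 3) in Tcf7 F/F:Vav1-Cre and 2.75 ± 0.0495 (SD, n = 2) in Tcf7 +/+, a 6.44-fold difference. An exact two-sided permutation test gave p = 0.2, the smallest that 3 libraries against 2 can give. In the Bcl11b table the ratio was 2.17 and 2.40 in D/N440K, 2.93 and 4.52 in +/N440K, and 6.94 and 5.21 in +/+. It was 2.63-fold lower in D/N440K than in +/+ and 1.65-fold lower in +/N440K than in +/+, without overlap. The exact two-sided permutation p was 0.333 for both, the smallest that 2 libraries against 2 can give.

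The ratio of Il18r1 to Il18rap moved less and was 1.76 and 1.59 in D/N440K, 1.89 and 1.81 in +/N440K, and 2.29 and 1.75 in Bcl11b +/+, with overlap between +/+ and each of the N440K genotypes. Among the Tcf7 genotypes it was 2.80, 3.08 and 3.08 in Tcf7 F/F:Vav1-Cre, against 1.82 and 2.52 in Tcf7 +/+, 1.39-fold higher in Tcf7 F/F:Vav1-Cre (exact two-sided permutation p = 0.2, the smallest possible).

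**Figure D3:**
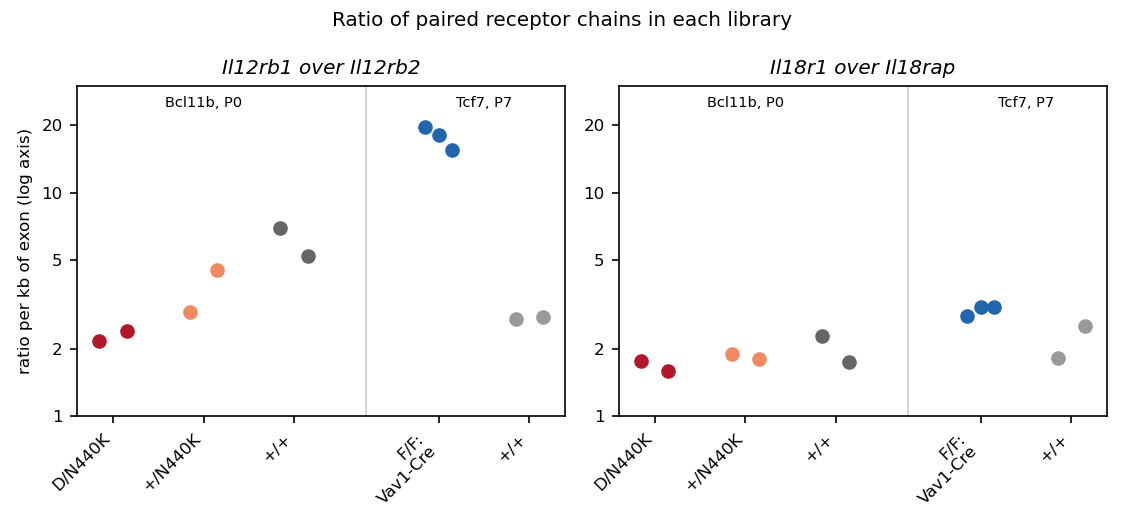
Ratio of the chains of each receptor in every library, per kilobase of exon, on a log axis; each point is 1 library. Il12rb1 over Il12rb2 lies at 15.5 to 19.6 in Tcf7 F/F:Vav1-Cre and at 2.71 and 2.78 in Tcf7 +/+. Il18r1 over Il18rap stays between 1.59 and 3.08 in all libraries. The Il12rb2 length includes exon bases shared with Serbp1.

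Il18r1 and Il18rap end a run of IL-1 receptor family genes on chromosome 1, in the order Il1r2, Il1r1, Il1rl2, Il1rl1, Il18r1 and Il18rap, all on the plus strand. The neighbours did not rise with the IL-18 receptor pair in the N440K genotypes. Il1r1, the signalling receptor of IL-1, was at 23.98 and 19.34 CPM in D/N440K, 38.35 and 28.62 CPM in +/N440K, and 121.7 and 110.4 CPM in Bcl11b +/+. It fell 5.27-fold in D/N440K against +/+ (log2 fold change -2.40 ± 0.204 SE, edgeR adjusted p = 6.251e-12) and 3.40-fold in +/N440K (-1.77 ± 0.183, edgeR adjusted p = 1.948e-09). Il1rl1, the chain ST2 that binds IL-33, ends 136 bases before Il18r1 begins. It was at 16.27 and 10.18 CPM in D/N440K, 17.95 and 18.75 CPM in +/N440K, and 16.37 and 34.87 CPM in Bcl11b +/+, and did not pass the test (edgeR adjusted p = 0.06895 for D/N440K and 0.4028 for +/N440K).

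These same neighbours were higher in Tcf7 F/F:Vav1-Cre than in Tcf7 +/+. Il1r1 was at 464.2, 356.5 and 375.5 CPM in Tcf7 F/F:Vav1-Cre, against 150.4 and 202.9 CPM in Tcf7 +/+, and rose 2.25-fold (log2 fold change 1.17 ± 0.157 SE, edgeR adjusted p = 3.13e-05). Il1rl1 was at 76.82, 90.40 and 82.90 CPM in Tcf7 F/F:Vav1-Cre, against 21.98 and 43.96 CPM in Tcf7 +/+, and rose 2.53-fold (1.34 ± 0.242, edgeR adjusted p = 0.0005624). Il1rl2, the IL-36 receptor, passed in none of these comparisons, and Il1r2, the IL-1 decoy receptor, was tested in the Tcf7 table alone and did not pass there.

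**Figure D4:**
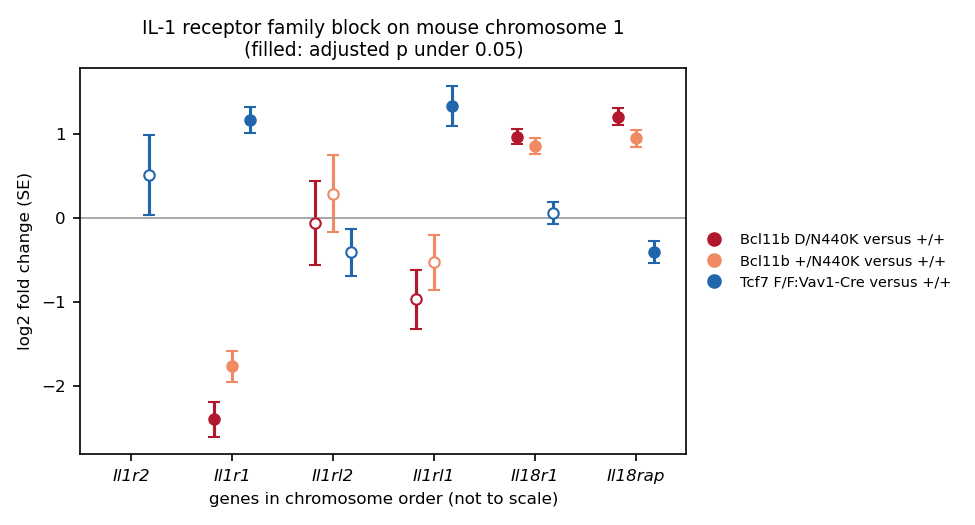
The edgeR log2 fold change, with SE bars, of the 6 genes of the IL-1 receptor family run in chromosome order (spacing not to scale) in D/N440K, +/N440K and Tcf7 F/F:Vav1-Cre, each against its own +/+ group. Filled points had an adjusted p under 0.05: in the Bcl11b comparisons Il1r1 lies below 0 and Il18r1 and Il18rap above it. Il1r2 was tested in the Tcf7 table alone.

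The 64 other genes of the IL-12 and IL-18 pathways were listed by role, and 52 of them were tested at postnatal day 0 and 60 at postnatal day 7. In D/N440K against +/+, 8 rose and 6 fell, or 26.9% of those tested, beside 12.4% of all genes. Of these 14 calls 7 held whichever 1 library was left out, 8 held without +/+ replicate 1, and 6 held with DESeq2. In +/N440K against +/+, 5 rose and 4 fell, or 17.3%, beside 10.1%, and 7 of the 9 calls held whichever 1 library was left out and 5 with DESeq2. No listed gene passed between D/N440K and +/N440K. In Tcf7 F/F:Vav1-Cre against Tcf7 +/+, 18 rose and 7 fell, or 41.7%, beside 23.2% of all genes. Of these 25 calls 17 held whichever 1 library was left out, and 17 held without a filter on low counts. With sex as a term in the model, the calls of Il27ra, Jak1, Tyk2, Stat4, Tab2, Nfkb2, Relb, Socs3, Gadd45b, Gzmb and Xcl1 ended. The genotype effect there rests on the single F/F:Vav1-Cre library with Y-linked reads, so the calls that held are not separately adjusted for sex. Of the 25 calls 0 held with Y-linked libraries only, which leaves 1 library against 2.

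Among the ligands, of which 7 were listed, too few were expressed for most to be tested, and none that were tested passed. Il12a and Il12b, the subunits of IL-12, were not detected in the Bcl11b libraries (0 counts each) and reached at most 1.69 CPM at postnatal day 7. Il18 was at 0.856 and 0 CPM in D/N440K, 0.816 and 1.97 CPM in +/N440K, and 2.05 and 1.66 CPM in Bcl11b +/+, too few reads to test. It was at 8.09, 7.34 and 4.45 CPM in Tcf7 F/F:Vav1-Cre, against 14.7 and 6.20 CPM in Tcf7 +/+ (edgeR adjusted p = 0.3023). Il18bp, the soluble trap of IL-18, lay between 31.6 and 60.3 CPM in every library and did not pass in any comparison.

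Of 3 other receptor chains of the IL-12 family, 3 fell in D/N440K and 2 in +/N440K against +/+, where 6.31% and 5.3% of tested genes fell. Il23r, which pairs with Il12rb1 to bind IL-23, was at 7.71 and 4.07 CPM in D/N440K, 17.9 and 15.8 CPM in +/N440K, and 54.2 and 40.7 CPM in +/+. It fell 7.64-fold in D/N440K against +/+ (log2 fold change -2.93 ± 0.354 SE, edgeR adjusted p = 3.221e-08) and 2.75-fold in +/N440K (-1.46 ± 0.279, edgeR adjusted p = 0.0001971). Both partners of Il12rb1 thus changed in the N440K genotypes, Il12rb2 upward and Il23r downward, while Il12rb1 itself did not pass. Il6st, the shared chain gp130, fell in both (-1.49 in D/N440K and -0.91 in +/N440K), though DESeq2 did not call it in +/N440K (-0.926, DESeq2 adjusted p = 0.08973). Il27ra fell in D/N440K (-0.50, edgeR adjusted p = 0.001385), but not without +/+ replicate 1, with an edgeR adjusted p of 0.1316, nor with DESeq2 (-0.514, DESeq2 adjusted p = 0.05756). It did not pass in +/N440K (-0.31, edgeR adjusted p = 0.07164). Il23r did not pass between the Tcf7 genotypes, with 105.1, 110.7 and 95.7 CPM in Tcf7 F/F:Vav1-Cre and 83.4 and 106.5 CPM in Tcf7 +/+ (edgeR adjusted p = 0.6213), while Il27ra fell (-0.67, edgeR adjusted p = 0.001841).

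Of 8 kinases and STAT factors, 1 fell in each N440K genotype and none rose. Of all tested genes 12.4% were called in D/N440K and 10.1% in +/N440K. The factor that fell was Stat5b (-0.45 in D/N440K and -0.40 in +/N440K against +/+). Both of its calls ended without +/+ replicate 1, with edgeR adjusted p values of 0.06847 and 0.1583. The +/N440K call also ended without +/N440K replicate 2. Stat4, the factor bound by Il12rb2, was at 40.2 and 57.0 CPM in D/N440K, 36.7 and 41.5 CPM in +/N440K, and 38.9 and 38.2 CPM in +/+, and did not pass. Between the Tcf7 genotypes it was at 23.4, 21.5 and 13.9 CPM in Tcf7 F/F:Vav1-Cre, against 44.5 and 53.0 CPM in Tcf7 +/+, and fell 2.52-fold (log2 fold change -1.33 ± 0.245 SE, edgeR adjusted p = 0.0006507). With sex as a term, where the effect rests on 1 F/F:Vav1-Cre library, its log2 fold change was -1.18 and its call ended. Stat4 shares 26.7% of its exon bases with other annotated genes on its own strand. Tyk2, the kinase of Il12rb1, rose there (0.67 ± 0.156, edgeR adjusted p = 0.00478) and Jak1 fell (-0.44). The Tyk2 call ended without F/F:Vav1-Cre replicate 3, at an edgeR adjusted p of 0.05003, and the Jak1 call without F/F:Vav1-Cre replicate 2 or 3 or Tcf7 +/+ replicate 2, at up to 0.1107.

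Of 18 MYD88 and NF-kB genes, 3 rose in D/N440K, 1 in +/N440K and 6 in the Tcf7 comparison, and none fell. Of all tested genes 6.1% rose and 6.31% fell in D/N440K, 4.79% and 5.3% in +/N440K, and 12% and 11.1% in the Tcf7 comparison. Tirap, an adaptor beside MYD88 in Toll-like receptor signalling, was at 35.1 and 39.7 CPM in D/N440K, 34.3 and 25.7 CPM in +/N440K, and 20.5 and 12.4 CPM in +/+. It rose in D/N440K (1.21 ± 0.296, edgeR adjusted p = 0.003175) and in +/N440K (0.91 ± 0.307, edgeR adjusted p = 0.04909). Both calls ended without +/+ replicate 2, with edgeR adjusted p values of 0.1289 and 0.4912, and the second also without +/N440K replicate 1. DESeq2 made neither call (DESeq2 adjusted p = 0.1366 and 0.5625). The +/N440K call also ended with RLE scaling, no filter, the replicate block and only the groups compared (edgeR adjusted p 0.05048 to 0.07001). It ended with limma as well (limma adjusted p = 0.05264 and 0.05374). Nfkb2 (0.50) and Nfkb1 (0.28), precursors of NF-kB subunits, rose in D/N440K, and the Nfkb1 call ended without either D/N440K library or without +/+ replicate 1, at up to an edgeR adjusted p of 0.2325. In the Tcf7 table, the adaptor Myd88 was at 127, 135 and 138 CPM in Tcf7 F/F:Vav1-Cre, against 60.3 and 78.9 CPM in Tcf7 +/+, and rose 1.92-fold (edgeR adjusted p = 0.0004258). The kinase Irak2 rose 2.75-fold there (log2 fold change 1.46 ± 0.186, edgeR adjusted p = 1.792e-05). Nfkb1 (0.66), Nfkb2 (0.56), Relb (0.63) and Tab2 (0.55) rose too. The Nfkb2 and Relb calls ended without F/F:Vav1-Cre replicate 2 or 3 or Tcf7 +/+ replicate 2, at up to edgeR adjusted p values of 0.07771 and 0.1008, and the Tab2 call without F/F:Vav1-Cre replicate 1, at 0.05656.

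Among 9 inhibitors, Cish, which encodes a STAT5-induced SOCS protein, rose in all 3 comparisons with +/+. It was at 99.4 and 95.7 CPM in D/N440K, 116 and 103 CPM in +/N440K, and 69.6 and 68.9 CPM in Bcl11b +/+ (edgeR adjusted p = 0.02657 for D/N440K and 0.001856 for +/N440K). The D/N440K call ended without any 1 of its 4 libraries, at up to an edgeR adjusted p of 0.177. In the Tcf7 table Cish was at 328, 322 and 364 CPM in Tcf7 F/F:Vav1-Cre, against 45.6 and 31.6 CPM in Tcf7 +/+, an 8.75-fold rise (log2 fold change 3.13 ± 0.174 SE, edgeR adjusted p = 1.613e-09). Socs1 (1.37) and Socs2 (1.57), inhibitors of JAK signalling, rose in Tcf7 F/F:Vav1-Cre as well, and Socs3 fell (-0.75). Socs2 also rose in D/N440K (1.10, edgeR adjusted p = 0.01361); without +/+ replicate 1 or D/N440K replicate 1 this call ended, at up to an edgeR adjusted p of 0.2063.

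Of the 13 genes known to respond to IL-12 and IL-18 in lymphocytes, 8 were tested in the Bcl11b table. Tbx21, the type 1 lineage factor T-bet, was at 294.6 and 345.0 CPM in D/N440K, 264.4 and 321.8 CPM in +/N440K, and 141.2 and 144.5 CPM in +/+. It rose 2.23-fold in D/N440K (log2 fold change 1.16 ± 0.115 SE, edgeR adjusted p = 4.051e-10) and 2.04-fold in +/N440K (1.03 ± 0.116, edgeR adjusted p = 1.351e-08). Gzmb, the cytotoxic protease granzyme B, rose in both (1.11 in D/N440K and 0.99 in +/N440K), as did the chemokine gene Xcl1 (0.93 and 0.82). Furin, which encodes a proprotein convertase, fell in D/N440K (-0.26, edgeR adjusted p = 0.04821), but not when +/+ replicate 1 or D/N440K replicate 1 was left out, at up to an edgeR adjusted p of 0.6815. Ifng, the interferon gamma gene, had too few reads to be tested in the Bcl11b table, with 20 over the D/N440K pair, 17 over the +/N440K pair and 6 over the +/+ pair. The median log2 fold change of the 8 tested genes was 0.57 in D/N440K and 0.74 in +/N440K.

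In the Tcf7 table all 13 responding genes were tested, and 6 rose and 3 fell, where 12% of tested genes rose and 11.1% fell. Their median log2 fold change was 0.79 beside -0.01 over all genes. The calls of Gadd45b (0.86), Gzmb (0.54) and Xcl1 (-0.68) ended without Tcf7 +/+ replicate 2 and without F/F:Vav1-Cre replicate 1 or 2, and those of Gadd45b and Xcl1 also without F/F:Vav1-Cre replicate 3. Their edgeR adjusted p values then reached 0.2187 for Gadd45b, 0.07914 for Gzmb and 0.1002 for Xcl1. Ifng was at 7.28, 7.91 and 5.01 CPM in Tcf7 F/F:Vav1-Cre, against 29.3 and 28.7 CPM in Tcf7 +/+, and fell 4.31-fold (log2 fold change -2.11 ± 0.302 SE, edgeR adjusted p = 6.158e-05). It shares 25.9% of its exon bases with another annotated gene on its strand. Tbx21 was at 38.0, 35.6 and 35.6 CPM in Tcf7 F/F:Vav1-Cre, against 107.6 and 81.2 CPM in Tcf7 +/+, and fell 2.60-fold (-1.38 ± 0.193, edgeR adjusted p = 5.088e-05). Furin was at 1177, 1040 and 1276 CPM in Tcf7 F/F:Vav1-Cre, against 338 and 341 CPM in Tcf7 +/+, and rose 3.43-fold (1.78 ± 0.122, edgeR adjusted p = 1.494e-08). Il2ra, the IL-2 receptor alpha chain, rose 6.83-fold (2.77 ± 0.155, edgeR adjusted p = 1.64e-09). Csf2, the GM-CSF gene, was at 20.2, 15.8 and 9.46 CPM in Tcf7 F/F:Vav1-Cre, against 1.69 and 0.564 CPM in Tcf7 +/+ (edgeR adjusted p = 0.0002292), and Gadd45g rose (1.54). These responding genes did not move as a block: those that fell, as Il12rb2 and Stat4 did, include Ifng and Tbx21, while Furin and Il2ra rose.

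**Figure D5:**
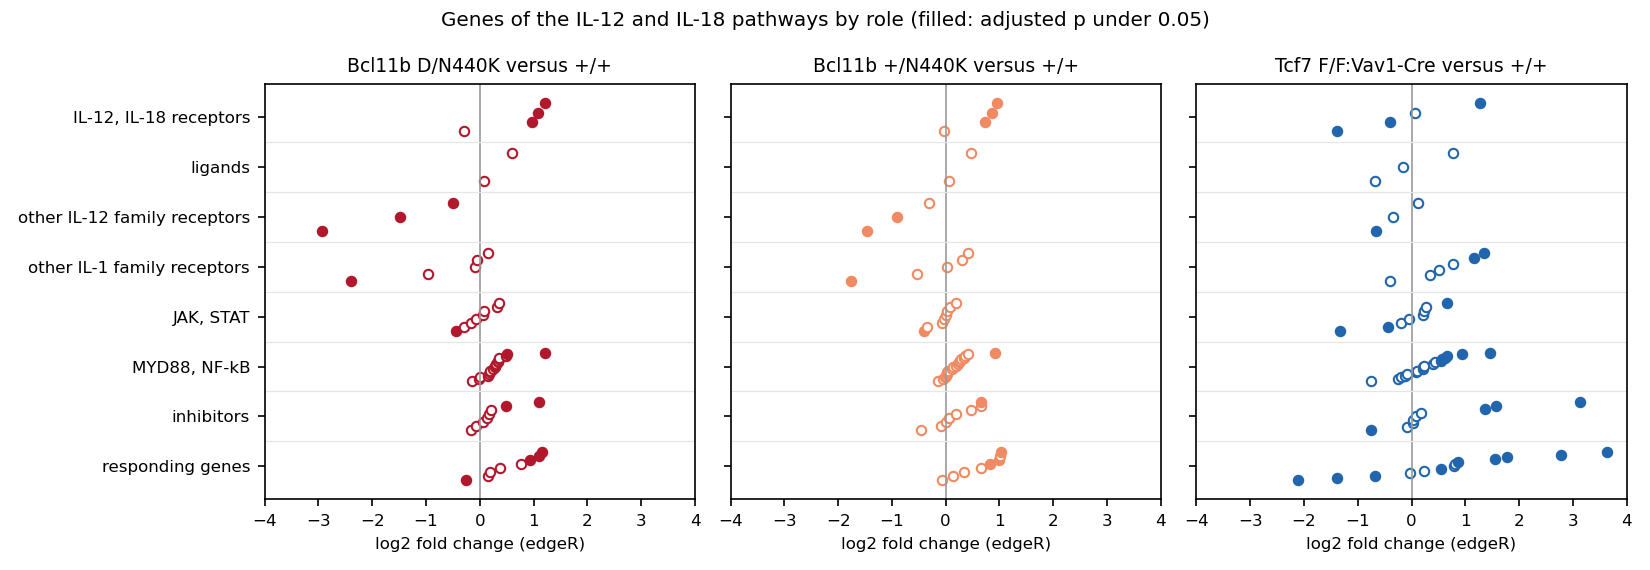
The edgeR log2 fold change of each tested gene of the IL-12 and IL-18 pathways by role, with 1 point per gene and 1 panel per comparison with +/+. Filled points had an adjusted p under 0.05. In the Bcl11b panels the other IL-12 family receptors lie below 0 while 3 of the 4 receptor genes lie above it, and in the Tcf7 panel most roles hold genes on both sides.

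Markers of other cell types moved with these results, and fewer cells of a type cannot be told apart from less RNA per cell in these bulk libraries. Of 10 NK and ILC1 markers, 10 rose in D/N440K and 9 in +/N440K against +/+, where 6.1% and 4.79% of tested genes rose. The summed level of these markers was 3679 to 3742 CPM in D/N440K, 3303 to 3547 CPM in +/N440K and 2134 to 2205 CPM in Bcl11b +/+. None was at 0: Ncr1, the NK receptor NKp46, was at 118.1 to 138.7 CPM in D/N440K, 72.0 to 89.8 CPM in +/N440K and 13.3 to 20.5 CPM in +/+. In Tcf7 F/F:Vav1-Cre 6 of these 10 markers fell and none rose, where 11.1% of tested genes fell and 12% rose. The sum was 1345 to 1628 CPM against 1637 to 1911 CPM in Tcf7 +/+. Much of that sum was Il2rb, which was not called there. Il2rb averaged 982.8 CPM in Tcf7 F/F:Vav1-Cre and 880.6 CPM in Tcf7 +/+. Tbx21 is counted both here and among the responding genes. The part of NK and ILC1 markers in the receptor results was not tested.

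Markers of γδ T cells, 4 of 5 of which matched, fell in both N440K genotypes, to a sum of 309.4 to 339.1 CPM in D/N440K and 470.8 to 500.2 CPM in +/N440K, against 1330 to 1553 CPM in +/+. Of these, 2 fell and 1 rose in Tcf7 F/F:Vav1-Cre, where 11.1% of tested genes fell and 12% rose. The sums were 957.5 to 1049 CPM in Tcf7 F/F:Vav1-Cre and 1173 to 1450 CPM in Tcf7 +/+. T lineage markers summed to 2568 to 2598 CPM in D/N440K, 2649 to 2653 CPM in +/N440K and 2968 to 3148 CPM in Bcl11b +/+. They summed to 2108 to 2340 CPM in Tcf7 F/F:Vav1-Cre and 2978 to 3200 CPM in Tcf7 +/+. Of the 11 markers, 7 fell and none rose in each N440K genotype, where 6.31% (D/N440K) and 5.3% (+/N440K) of tested genes fell. In Tcf7 F/F:Vav1-Cre 8 fell and 2 rose, where 11.1% of tested genes fell and 12% rose. Much of the sum in the Bcl11b table was Ptprc, which was not called there. Ptprc averaged 1286 CPM in D/N440K, 1242 CPM in +/N440K and 1150 CPM in Bcl11b +/+. The 8 myeloid markers summed to 312.5 to 321.2 CPM in D/N440K, 226.0 to 259.6 CPM in +/N440K and 116.6 to 159.5 CPM in Bcl11b +/+, with S100a9 at 0 in all of these libraries. They summed to 1134 to 1289 CPM in Tcf7 F/F:Vav1-Cre and 445.3 to 778.1 CPM in Tcf7 +/+. Erythroid markers summed to 83.1 to 107.9 CPM in D/N440K, 1.97 to 18.0 CPM in +/N440K and 9.96 to 47.1 CPM in Bcl11b +/+, and to at most 0.556 CPM in the Tcf7 table. B lineage markers summed to 9.16 to 12.0 CPM in D/N440K, 13.9 to 20.7 CPM in +/N440K and 26.6 to 34.0 CPM in Bcl11b +/+, with Ms4a1 at 0 in all of these, and to 39.5 to 46.9 CPM in Tcf7 F/F:Vav1-Cre and 121.2 to 122.3 CPM in Tcf7 +/+. Dendritic markers summed to 201.6 to 337.6 CPM over the Bcl11b table, with overlap of all groups, and to 1159 to 1360 CPM in Tcf7 F/F:Vav1-Cre and 892.2 to 1249 CPM in Tcf7 +/+. That sum hides opposite calls in each N440K genotype: of 5 markers Itgax rose, Siglech fell and 3 were not called. Of all tested genes 12.4% were called in D/N440K and 10.1% in +/N440K. Itgax averaged 130.2 CPM in D/N440K, 101.1 CPM in +/N440K and 32.44 CPM in Bcl11b +/+, and Siglech 75.04, 75.42 and 112 CPM. Stromal markers summed to 17.1 to 31.0 CPM over the Bcl11b table, and to 25.6 to 35.6 CPM in Tcf7 F/F:Vav1-Cre and 14.7 CPM in both Tcf7 +/+ libraries. The part of these cell types was not tested.

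Across the 11 libraries, with the mean of each table subtracted, the log2 levels of the receptor genes were compared with each other and with 10442 genes, as a description over libraries that share their groups. Il18r1 and Il18rap had a Pearson r of 0.84 over all libraries, 0.96 over the 6 of the Bcl11b table and -0.36 over the 5 of the Tcf7 table. Il12rb1 and Il12rb2 ran against each other, with r of -0.83, -0.72 and -0.94. Il18rap and Il12rb2, which bind no common ligand, ran together, with r of 0.75, 0.89 and 0.88.

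The genes most like Il18r1 were Timp2 (r = 0.965), Gm1966 (0.961), Armc9 (0.954), Pex11g (0.952) and Pura (0.944). Those most like Il18rap were Gas7 (0.975), Plek (0.969), Errfi1 (0.967), Cd226 (0.962) and Plec (0.956), of which Cd226 encodes the activating receptor DNAM-1. Those most like Il12rb2 were Ptgfrn (0.962), Itga1 (0.947), Klrk1 (0.947), Crybg2 (0.945) and Tbc1d2b (0.945), of which Klrk1 encodes the NK receptor NKG2D and Itga1 the integrin chain alpha 1. Genes most like Il12rb1 included Furin (0.989), Nr1d1 (0.986), Gm37422 (0.983) and Cd93 (0.982). Each r is over 11 libraries, and no gene stood among the first 5 of more than 1 receptor gene.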

How the data were processed

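RNA of sorted thymocytes was measured in 11 libraries, grouped by the sample titles. Libraries were amplified by PCR after a RamDA-seq protocol with changes and Tn5 cutting, per the labels' protocols, so reads are not independent molecules. The authors deposited whole-number counts per Ensembl gene, without normalization. The submitters' processing notes name STAR 2.7.3a, HTSeq 0.11.2, Picard 2.21.1, fastp 0.20.0, SAMtools 1.9 and edgeR, and mm10 (GRCm38) as the build, and the annotation release and the strand of counting are not stated. The deposited CPM are these counts divided by the library total times its TMM factor: 100% of values gave back whole reads within 0.001, and CPM computed here matched them to 5e-07.

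Each table was filtered with filterByExpr (minimum count 10), normalised by TMM and fitted with edgeR 4.0.16 (quasi-likelihood, R 4.3.3), with a coefficient per group and 3 residual degrees of freedom. Calls were made at a Benjamini-Hochberg adjusted p under 0.05, two-sided, over 10910 genes of the Bcl11b table and 12366 of the Tcf7 table. Biological coefficients of variation were 0.0445 and 0.122. Differences of effects came from one model of 12249 genes with 6 residual degrees of freedom. The SE is the size of a log2 fold change fitted without a prior count, divided by the root of the F statistic. The log2 fold change printed beside it is that of the quasi-likelihood test. Levels per kilobase use GENCODE M21 exon lengths, and promoter windows are from RefSeq (GRCm38.p6). Likeness used log2 CPM with a prior count of 2 among genes with an average log2 CPM of at least 3. The result of 1 gene covered by this rule is not reported here.

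The receptor genes, pathway and marker lists and motifs were chosen with earlier results of these data known. Pathway genes were named where called, up to the 6 of smallest p in a list, and Serbp1, Bcl11b, Tcf7, Ddx3y and Xist were named as checks. Ligands and other genes not called were named for their roles after their values were seen. Alternatives were RLE and upper-quartile scaling, no filter, a filter at CPM 5 in 2 libraries, and DESeq2 1.42.0. Further ones were limma 3.58.1 on the authors' CPM (pseudocounts 1 and 0.25), a fit of the compared groups alone, a replicate block, and leaving out 1 library at a time. Sex as a term, libraries with Y-linked reads only, and counts rebuilt from the deposited CPM were added after seeing the data. Ratios were compared by exact permutation (SciPy 1.17.1), and figures drawn with matplotlib 3.10.9.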

Additional observations from a re-analysis of the deposited data

Results flagged for a closer look

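The effect of each N440K genotype on each of the 4 receptor genes differed from the effect of Tcf7 F/F:Vav1-Cre on it, by a test of the difference itself in one edgeR model over 11 libraries. For D/N440K minus Tcf7 F/F:Vav1-Cre, the difference of log2 fold changes was 0.902 for Il18r1, 1.616 for Il18rap, -1.569 for Il12rb1 and 2.472 for Il12rb2 (edgeR adjusted p = 0.0003205, 1.068e-07, 2.012e-07 and 3.06e-06). For +/N440K minus Tcf7 F/F:Vav1-Cre, it was 0.794 for Il18r1, 1.365 for Il18rap, -1.305 for Il12rb1 and 2.112 for Il12rb2 (edgeR adjusted p = 0.001462, 1.973e-06, 3.737e-06 and 4.18e-05). Each of these 8 differences kept its sign and stayed past the threshold in the 15 alternatives run for it. All of these pooled the spread of both tables, which had biological coefficients of variation of 0.0445 (Bcl11b) and 0.122 (Tcf7) when fitted apart. The adjusted p values therefore lean on the less variable Bcl11b libraries and do not measure the spread of the Tcf7 libraries alone. The alternative with Y-linked libraries alone leaves 1 library labelled Tcf7 F/F:Vav1-Cre, which has no spread of its own. The differences for D/N440K were then 0.932 for Il18r1, 1.693 for Il18rap, -1.51 for Il12rb1 and 2.602 for Il12rb2. Age and table differ together with the genotypes, and these cannot be told apart.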

How the results depend on the processing

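Of 352 alternative values of the receptor genes, 334 kept direction and side of the threshold, 13 lost the call, 3 gained one and 2 changed sign; of 722 values of other pathway genes 610 were kept and 112 lost the call. Causes were not tested unless said. Il18r1 and Il18rap in both N440K comparisons with +/+, and Il12rb2 in D/N440K, kept their calls under every alternative run. For Il12rb2 in +/N440K, DESeq2 gave a log2 fold change of 0.726 (adjusted p = 0.3132), and leaving out 1 library gave 0.359 to 1.003. Il12rb1 in D/N440K passed with upper-quartile scaling (-0.308, edgeR adjusted p = 0.04371) and with only the groups compared (-0.295, 0.04445), and ranged from -0.409 to -0.184 with 1 library left out. Il12rb1 in +/N440K ranged from -0.15 to 0.082, reversed without +/+ replicate 1 at 0.082. In the Tcf7 comparison, Il18r1 ranged from -0.107 to 0.273 and reversed at -0.107 without Tcf7 +/+ replicate 1. Il18rap lost its call without a filter (-0.413, edgeR adjusted p = 0.06626), with DESeq2 (-0.404, 0.07015), with Y-linked libraries only (-0.474, 0.5314) and with sex as a term (-0.487, 0.1915), and ranged from -0.46 to -0.349 with 1 library left out. With Y-linked libraries only, which leaves 1 library against 2, Il12rb1 (1.219, 0.2527) and Il12rb2 (-1.505, 0.2867) lost theirs. The lone library was assumed to vary like the others. With sex as a term, the genotype effect rests on that same library.

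The count of genes called in +/N440K against +/+ was 1101, with 357 by DESeq2 and 726 to 945 with 1 library left out, lowest without +/+ replicate 1. In D/N440K it was 1353, with 528 by DESeq2 and 924 to 1007 with 1 left out. Between D/N440K and +/N440K it was 58, with 91 without a filter, 4 by DESeq2 and 25 to 63 with 1 left out, lowest without D/N440K replicate 1 and 35 without replicate 2. In the Tcf7 comparison it was 2863, with 1606 without a filter, 1112 with sex as a term, and 1700 (without F/F:Vav1-Cre replicate 3) to 4612 (without Tcf7 +/+ replicate 1). With Y-linked libraries only it was 0 by edgeR, with 1484 genes at an unadjusted p under 0.05.

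Groups share replicate numbers. Deviations of same-numbered libraries correlated at -0.033 to 0.01 in the Bcl11b table and at -0.112 and 0.074 in the Tcf7 table. With so few libraries per group the deviations within a group mirror each other. These values therefore cannot decide whether libraries of the same number were paired. With the replicate block the counts were 982 for +/N440K, 1267 for D/N440K, 37 between them and 1996 in the Tcf7 comparison. The block ended the Tcf7 call of Il18rap (-0.382, edgeR adjusted p = 0.1914) and no other call of a receptor gene.

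Of the 4 receptor genes Il12rb2 had the fewest reads, 19 to 103 per library, and the ligands and Ifng could not be tested in full.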
